A study of Mus musculus with 74 samples.

Results

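Thymocytes of DO11.10 mice were set against thymocytes of mhc -/- mice on 6 of the 74 two-colour arrays of the series. The 6 arrays were taken by their titles and source names, which place total thymocyte RNA of a DO11.10 mouse in one channel and that of an mhc -/- mouse in the other. DO11.10 mice carry a transgenic T cell receptor (TCR), and the titles call them untreated, in contrast to the peptide-injected DO11.10 mice of another 18 arrays. The label mhc -/- marks mice that lack the major histocompatibility complex (MHC). How they were made, and the strain, sex and age of both kinds of mice, are not given in the labels used here, so strain, sex and age cannot be told apart from genotype. The other 50 arrays hold hybridoma T cells, also named DO11.10, transduced with retroviruses, each against untreated hybridoma cells. On 8 arrays of an empty virus and 8 of a mutant called HDAC7 DP, the transduced cells were also given the drugs PMA and ionomycin for 2.5 h.

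Thymocytes pass from a double-negative stage, without the CD4 and CD8 coreceptors, to a double-positive stage with both, and then to a single-positive stage. The last step, positive selection, needs a TCR that is engaged by self peptide on an MHC molecule of the thymic cortical epithelium. Class II molecules select CD4 cells and class I molecules, whose light chain is beta-2 microglobulin, select CD8 cells. The DO11.10 TCR recognises an ovalbumin peptide on a class II molecule. The comparison therefore sets a thymus in which a selectable receptor meets MHC against one in which the cells do not receive that signal. The titles name DO11.10 for the first side alone, so effects of the transgenic receptor itself cannot be told apart from those of MHC loss.

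Each array gave 16463 log2 ratios, and 3 arrays carried DO11.10 RNA in Cy5 and 3 in Cy3. The ratios were tested against 0 with limma, with a term for dye orientation, and calls were made where the Benjamini-Hochberg adjusted p was below 0.05. Correlations over probes were positive between all arrays, 0.82 to 0.932 for the 6 pairs of equal dye orientation and 0.794 to 0.886 for the 9 pairs of opposite orientation, so the deposited ratios had already been turned one way. Which way is not stated. The sign was read from B2m and the class II genes, taken to be higher where MHC is intact, and a positive value below is more RNA in DO11.10 thymocytes. In these bulk samples fewer cells of a type and less RNA per cell cannot be told apart. A ratio carries no level, so ratios of different genes do not rank their abundance.

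Of all probes 5975 were called, a background of 36.3%, with 3372 higher (20.5%) and 2603 lower (15.8%) in DO11.10 thymocytes. At least 2-fold changes leaned upward, with 1009 higher and 210 lower. All 6 arrays had the same sign for 5300 of the called probes. The median ratio over all probes was -0.01. Slides 1 to 4 and slides 17 and 18 form separate number ranges in the titles, and 224 probes (1.36%) were called different between these sets. Among them 171 were lower on slides 17 and 18, and 150 of those were genes called higher in DO11.10 cells. Values by set are given beside genes described below that were called different between the sets, and a p for a set difference is limma's adjusted p.

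The genes that settled the sign are given as a description, and support no direction. B2m, the light chain of class I molecules, had ratios of 2.97, 3.26 and 3.7 (lowest, median and highest of 6 arrays). H2-Ea, a class II alpha chain, had 3.34, 3.81 and 4.92, and its mean of 3.91 is a 15.1-fold difference. H2-Ab1, a class II beta chain, lay between 2.01 and 2.95. H2-Eb1 spread from 0.64 to 3.12, with replicate 3 the lowest. H2-Aa averaged 1.43 on slides 1 to 4 and 3.02 on slides 17 and 18, a called difference between the sets (limma, adjusted p = 0.023). H2-Ea is not transcribed in some inbred haplotypes, and with no strain in the labels the part of haplotype in its value was not tested. The promoters of class II genes share an inverted CCAAT element, the Y box, which stands close before the start in these RefSeq windows (build GRCm38.p6, capitals mark ATTGG or its reverse complement CCAAT, bases before the start). H2-Aa lies at chr17:34287824-34288073 on the minus strand, and H2-Eb1 at chr17:34305617-34305866 on the plus strand.
H2-Aa: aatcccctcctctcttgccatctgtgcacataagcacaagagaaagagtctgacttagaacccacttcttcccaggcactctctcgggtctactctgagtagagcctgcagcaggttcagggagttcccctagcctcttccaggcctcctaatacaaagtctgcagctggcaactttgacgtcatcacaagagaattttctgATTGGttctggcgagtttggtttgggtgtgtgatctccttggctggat
H2-Eb1: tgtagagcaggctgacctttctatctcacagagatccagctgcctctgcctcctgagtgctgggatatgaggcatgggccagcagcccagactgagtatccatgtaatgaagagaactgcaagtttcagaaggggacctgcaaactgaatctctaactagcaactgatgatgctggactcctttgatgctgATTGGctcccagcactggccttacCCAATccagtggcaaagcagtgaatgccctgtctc
The element begins 48 bases before the start of H2-Aa and 59 before that of H2-Eb1, where a reverse copy follows at 35. The same letters are common, and stand in 42.2% of 10084 promoters of genes on the array.

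The rest of the presentation machinery did not move as a block. Of 13 class II pathway genes measured, the 4 above included, 8 were higher and 1 was lower, with a median of 0.56, and without those 4, whose sign was set, 4 of 9 were higher and 1 lower, with a median of 0.07. The invariant chain gene Cd74 was higher (0.88), as were H2-Oa (0.95) and H2-DMb1 (0.56), whose products act at the peptide-exchange step. H2-DMa (0.07) and the class II transactivator gene Ciita (-0.01) were not called. Among 25 class I genes measured 8 rose (32.0%), B2m included, 5 fell (20.0%) and 12 were not called, with a median of 0.02. Some loading factors were among those that rose. The chaperone gene Calr had a ratio of 2.29 (1.55, 2.56 and 2.83), the immunoproteasome subunit gene Psmb10 1.47, the peptide transporter gene Tap1 1.25 and the proteasome activator gene Psme2 1.18. Of these Calr averaged 2.64 on slides 1 to 4 and 1.60 on slides 17 and 18 (adjusted p = 0.016 for the difference by limma), Psmb10 1.79 and 0.83 (0.0363) and Psme2 1.56 and 0.41 (0.0468). Other genes of the same machinery did not rise. The immunoproteasome subunit gene Psmb9 fell by 0.44, and its partner Psmb8 (-0.03), the transporter gene Tap2 (-0.38) and the tapasin gene Tapbp (0.10) were not called.

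Of 10 heavy chain and related class I genes measured, 4 fell, 1 rose (H2-M3, 0.29) and 5 were not called. H2-Bl fell to -3.36, with all 6 arrays between -3.89 and -2.85. The nonclassical gene H2-T23 fell by 1.71, H2-Q8 by 1.33 and H2-Q7 by 0.87. H2-D1, a classical heavy chain, was read by a pair of probes that disagreed, at 0.11 (not called) and at -1.70 (adjusted p = 6.3e-06, limma). Class I genes are near-identical copies that differ between strains, so which copy a probe reads is uncertain. The MHC region of chromosome 17 was taken in RefSeq from H2-K1 to H2-M3 with 20 genes on each side. Of its 109 array genes 45 were called higher and 18 lower. Without H2-Aa, H2-Ab1 and H2-Eb1, whose sign was set, 42 of 106 were higher (39.6%, against 20.5% of all probes) and 18 lower (17.0%, against 15.8%). Around B2m on chromosome 2, in a window of 20 genes on each side, 14 other genes were on the array. Of these 4 were higher (28.6%) and 1 was lower (7.1%).

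Genes that TCR engagement induces were raised in DO11.10 thymocytes, the list with the highest share of calls among those of at least 10 genes. Of 32 measured members 24 were higher (75%, against 20.5% of all probes), 1 was lower and 7 were not called, with a median of 0.49 against -0.01. No member differed between the slide sets. The count of members called higher was 22 to 24 when any array was left out, 22 on slides 1 to 4 and 19 with the spread taken from all 24 thymocyte arrays. The list was drawn up with earlier results of these arrays known, and its count is a description.

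Among the nuclear genes Egr1, its corepressor gene Nab2 and Egr2 had the largest ratios of those described here. Egr1, a zinc finger factor induced within minutes of TCR signalling, had ratios of 2.93, 3.19 and 3.49 (lowest, median and highest) and was 8.95-fold higher (log2 3.16, SE 0.08, adjusted p = 8.58e-07 by limma). Every array lay far above 0, and none stood apart. Egr2 had 1.67, 2.13 and 2.48 and was 4.20-fold higher, whereas Egr3 stood at -0.01 and was not called. Nab2, a corepressor that binds EGR factors, ranged from 2.29 to 2.83 (mean 2.61), and its relative Nab1 was 0.31 higher. Nr4a1, which encodes the orphan receptor Nur77 studied in this series, had 1.52, 1.93 and 2.19 and was 3.71-fold higher (log2 1.89, SE 0.08, adjusted p = 2.62e-06). Its relatives moved little, Nr4a2 by 0.35 (called) and Nr4a3 at 0.06 (not called). Id3, an inhibitor of E proteins downstream of EGR factors, was 0.79 higher. The lowest member was the deubiquitinase gene Cyld, at -0.19, the single member called lower. A second Cyld probe was called higher at 0.73, so the pair gives no direction for the gene.

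Surface receptors whose abundance follows TCR signal strength rose with them. Cd5, a negative regulator of TCR signalling that is set during selection, had ratios of 2.42, 3.89 and 4.43 and was 13.6-fold higher (log2 3.77, SE 0.21, adjusted p = 1.18e-05 by limma). Replicate 3 was the lowest and the other arrays lay at 3.63 or above. Its relative Cd6 had 1.58, 1.99 and 2.23 (mean 1.96). Cd69, the early activation antigen that holds selected cells in the thymus, had 1.73, 2.15 and 2.36 and was 4.37-fold higher. The tetraspanin gene Cd53 lay between 2.65 and 3.27. Pdcd1, which encodes the inhibitory receptor PD-1, had 1.29, 2.05 and 2.15. The costimulatory receptor gene Cd28 was 1.96-fold higher, with all arrays within 0.82 and 1.04. Tnfrsf9, another activation receptor gene, was not called by the first of its probes (-0.10) and was called higher by the other (0.27).

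Some of these genes also changed after antigen on other arrays, where thymocytes of peptide-injected DO11.10 mice were set against the same untreated DO11.10 side. Those comparisons share that side with this one, so the values stand side by side without a test of likeness, and their direction was read from the induced genes themselves. Peptide changed 2.71% of all probes at 3 h, 4.57% at 6 h and 3.38% at 12 h. At 3, 6 and 12 h after peptide Nr4a1 stood at 3.07, 3.05 and 1.75, Egr1 at 1.91, 1.16 and 0.93, and Cd69 at 2.53, 1.53 and 1.23, all called by limma. Cd5 stood at 1.53, 0.71 and 0.16, the last not called. Ccr7, Gimap4 and Cd53 were far higher in DO11.10 than in mhc -/- thymocytes, yet at 3 h after peptide they lay at 0.17, -0.11 and 0.07 and were not called. At 6 h Ccr7 was called higher (0.57), while Gimap4 (0.09) and Cd53 (-0.04) were not, and at 12 h none of the 3 was called (0.70, 0.24 and 0.13).

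Components of the TCR and its proximal kinases and adaptors were raised more often than the array as a whole. Of 35 genes measured 24 were higher (68.6%) and 1 was lower, with a median of 0.47, and the count ran from 20 to 24 over the alternatives tried. The receptor chain genes changed modestly, with Cd3e at 0.85 (0.05, 1.02 and 1.22), Cd3g at 0.55 and Cd247 at 0.31, while Cd3d at 0.13 was not called. A probe named for the TCR alpha locus, Tcra, lay between 1.42 and 3.03, and a pair of probes for a beta variable segment, Tcrb-V8.2, disagreed, with calls at -1.46 and 2.04. DO11.10 mice express a transgenic receptor, and the part of the transgene in these values was not tested. Larger changes fell on regulators. Csk, the kinase that holds Src family kinases inactive, was 7.16-fold higher (2.32, 2.75 and 3.44). The phosphatase gene Ptpn6 had 1.79, 2.69 and 3.28, and was lower on slides 17 and 18 (1.86) than on slides 1 to 4 (2.92, adjusted p = 0.048). The exchange factor gene Vav1 had a mean of 2.48 (3.02 on slides 1 to 4 and 1.39 on slides 17 and 18, adjusted p = 0.00576 for the difference), the adaptor gene Lat 1.53 (1.88 and 0.83 on these sets, adjusted p = 0.0131), the kinase gene Prkcq 1.31 and Zap70, the kinase recruited to the zeta chain, 0.94. Cd2, an adhesion receptor that aids TCR signalling, was 7.44-fold higher, between 2.65 and 3.07.

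**Figure D1:**
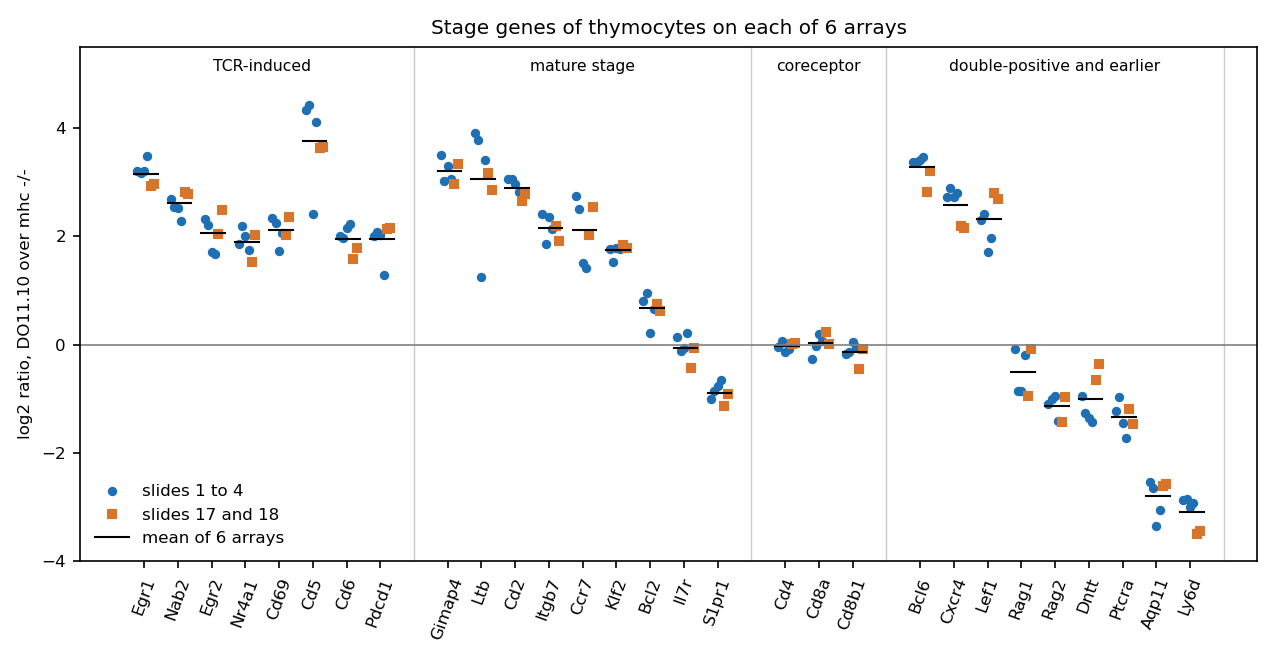
Log2 ratio of DO11.10 over mhc -/- thymocytes (vertical axis) for stage genes (horizontal axis) on each of 6 arrays, circles for slides 1 to 4, squares for slides 17 and 18, and a bar for the mean. TCR-induced genes lie above 0 on all 6 arrays, the coreceptor genes lie around 0, and genes of earlier stages lie on both sides, with Bcl6, Cxcr4 and Lef1 above 0 and Rag2, Ptcra, Aqp11 and Ly6d below it.

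Genes of mature single-positive thymocytes rose in larger number than they fell. Of 45 measured, 26 were higher (57.8%), 10 were lower and 9 were not called, with a median of 0.48. The median was 0.59 on slides 1 to 4 and 0.30 on slides 17 and 18. Ccr7, the chemokine receptor that draws selected cells to the medulla, had ratios of 1.41, 2.27 and 2.74 and was 4.36-fold higher (log2 2.12, SE 0.08, adjusted p = 2.7e-06 by limma). The GTPase gene Gimap4, which comes on in mature thymocytes, was 9.22-fold higher, between 2.97 and 3.51, and its neighbour Gimap3 stood at 2.24. Ltb, the lymphotoxin gene through which mature thymocytes act on medullary epithelium, had 1.25, 3.30 and 3.91, with replicate 3 far below the rest. Klf2, the factor that drives the egress programme, was 3.34-fold higher on average and varied between 1.52 and 1.84. The survival gene Bcl2 was 0.67 higher (0.22, 0.71 and 0.95).

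Other members of the mature list did not follow. Il7r, the interleukin 7 receptor of single-positive cells, stood at -0.06 and was not called, with arrays on both sides of 0. S1pr1, the receptor that thymocytes need to leave the thymus and a target of Klf2, fell by 0.89, and all arrays lay between -1.13 and -0.65. The calcium-binding gene S100a4 fell by 1.69, the LIM protein gene Crip1 by 1.30 and the surface antigen gene Ly6c1 by 1.30. Within the same list the integrin gene Itgb7 (2.15), the selectin ligand gene Selplg (2.29) and the surface antigen gene Cd52 (1.92) rose.

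Receptors of migration were raised as a broader set, 16 of 27 higher (59.3%) and 5 lower, with a median of 0.37. Besides Ccr7, the sphingosine phosphate receptor gene S1pr4 rose by 1.81, the integrin genes Itgal by 1.62 and Itga6 by 1.12, and the guidance receptor gene Plxnd1 by 1.52 (1.92 on slides 1 to 4 and 0.71 on slides 17 and 18, adjusted p = 0.0131). Cxcr4, the CXCL12 receptor that keeps immature cells in the cortex, had ratios of 2.15, 2.73 and 2.90 and was 6.00-fold higher, with slides 17 and 18 at 2.17 and slides 1 to 4 at 2.79 (adjusted p = 0.0468 by limma for the difference). Ccr9, the receptor for the cortical chemokine CCL25, was 0.26 lower, a call that ended without replicate 1, 2, 3 or 5, with slide set as a block, with trend and robust options and with the spread from all 24 thymocyte arrays (adjusted p = 0.0617 to 0.501). Genes of the lymphocyte cytoskeleton were mixed, with 18 of 32 higher and 8 lower. The actin-severing gene Cfl1 (1.86, 2.92 and 3.06) and the actin monomer-binding gene Pfn1 (1.00, 2.20 and 2.82) were the largest with Arhgef1 (2.36), an exchange factor for RhoA.

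The coreceptor genes were not called. Cd4 stood at -0.02, with arrays from -0.14 to 0.07 (adjusted p = 0.76 by limma). Cd8a stood at 0.04 (-0.27 to 0.23) and Cd8b1 at -0.14 (-0.45 to 0.05), and neither was called. Double-positive and single-positive cells both carry coreceptor transcripts. Among lineage factors, Gata3, required for CD4 cells, was 2.07-fold higher (0.65, 1.11 and 1.27), while Zbtb7b, the CD4 commitment factor ThPOK, stood at 0.15 and was not called (adjusted p = 0.0641). Runx3, the factor of CD8 and other cytotoxic cells, was 3.37-fold higher, with all arrays between 1.43 and 2.35. Of 13 CD4-lineage genes 6 were higher (46.2%, against 20.5% of all probes) and 1 was lower. Of 23 CD8 and cytotoxic genes 6 were higher and 6 lower (26.1% each, against 20.5% and 15.8% of all probes). The granzyme gene Gzma rose by 2.01 (1.84 to 2.22), whereas the killer receptor genes Klrc1 (-0.85) and Klrd1 (-0.39) and the perforin gene Prf1 (-0.25) fell. Among regulatory T cell genes, with 6 of 18 higher (33.3%) and 3 lower (16.7%), Gpr83 (2.04) and Ikzf2 (0.61) rose while Nrp1 (-1.62) and Ctla4 (-1.32) fell. Izumo1r, the folate receptor of regulatory cells, was 2.21 higher by the first of its probes and 0.15 by the other, which was not called.

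Genes of the double-positive stage went in both directions. Of 42 measured, 10 were higher (23.8%), 16 were lower (38.1%, against 15.8% of all probes) and 16 were not called, with a median of -0.10. The recombinase gene Rag2 was 2.21-fold lower, with all arrays between -1.43 and -0.94. Rag1 was 1.42-fold lower (-0.95, -0.53 and -0.08; adjusted p = 0.0235), a call that ended without replicate 2, 3 or 5, on slides 1 to 4 and with the spread from all 24 thymocyte arrays (adjusted p = 0.058 to 0.148). Dntt, which adds bases at receptor joints, was 2.00-fold lower, less so on slides 17 and 18 (-0.51) than on slides 1 to 4 (-1.25, adjusted p = 0.0463). The largest falls in the list were Ly6d, a surface antigen also found on B cell precursors (-3.49, -2.96 and -2.86; -2.91 on slides 1 to 4 and -3.46 on slides 17 and 18, adjusted p = 0.0468), the water channel gene Aqp11 (-3.35, -2.63 and -2.54), Mns1 (-1.55) and Spo11 (-1.55).

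Against them stood 3 transcription and receptor genes of the same list. Bcl6, a repressor, was 9.70-fold higher (2.83, 3.37 and 3.47), Cxcr4 is given above, and Lef1, a factor needed for positive selection, had a mean ratio of 2.32. The sialyltransferase gene St6gal1 was 1.70 higher and the thromboxane receptor gene Tbxa2r 1.85 (2.24 on slides 1 to 4 and 1.05 on slides 17 and 18, adjusted p = 0.0343). Earlier stages were likewise mixed. Ptcra, the surrogate alpha chain of the pre-TCR, was 2.52-fold lower (-1.73, -1.33 and -0.96), and Il2ra, the CD25 gene of double-negative cells, was 1.84-fold lower (-1.10 to -0.73). Mycn fell by 1.56, while Cd44, present on the earliest progenitors and again on memory cells, rose by 1.36. The Notch targets Hes1 (0.04) and Nrarp (-0.01) were not called, and Notch3 (-0.43) fell where Notch1 (0.35) and Dtx1 (0.34) rose. In all 8 of 29 genes of this stage were higher (27.6%, against 20.5% of all probes) and 7 lower (24.1%, against 15.8%).

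Genes of cell division were more often lower than higher in DO11.10 thymocytes. Of 53 measured 28 were lower (52.8%, against 15.8% of all probes) and 9 were higher, with a median of -0.29, and leaving out any array gave 26 to 28 lower. The lowest value was -1.03. The proliferation marker gene Mki67 fell by 0.99, the thymidylate synthase gene Tyms by 1.00, the centromere histone gene Cenpa by 1.03, the cyclin genes Ccne2 by 1.03 and Ccna2 by 0.69, and the mitotic kinase gene Aurkb by 0.98. Pclaf, a partner of the replication clamp that is not in the list, was among the lowest of all genes (-4.40, -3.99 and -2.81). Against this direction the replicative helicase subunit gene Mcm2 stood at 2.14 (2.47 on slides 1 to 4 and 1.47 on slides 17 and 18, adjusted p = 0.0456), while its partners Mcm4, Mcm5, Mcm6 and Mcm7 lay between -0.56 and -0.21, all called lower. The mitotic genes Kif23 (1.65), Plk1 (1.13) and Mybl2 (1.05) rose as well. Subunits of oxidative phosphorylation were more often lower than higher. Of 40 measured 22 were lower (55%), 15 were not called and 3 were higher, with a median of -0.23 and a lowest value of -0.43 (Ndufa9). Those higher were Sdhb of complex II (0.64), Ndufv1 of complex I (0.51) and Uqcrb of complex III (0.27). The number lower was 16 to 20 without any 1 array and 15 with the spread from all 24 thymocyte arrays.

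**Figure D2:**
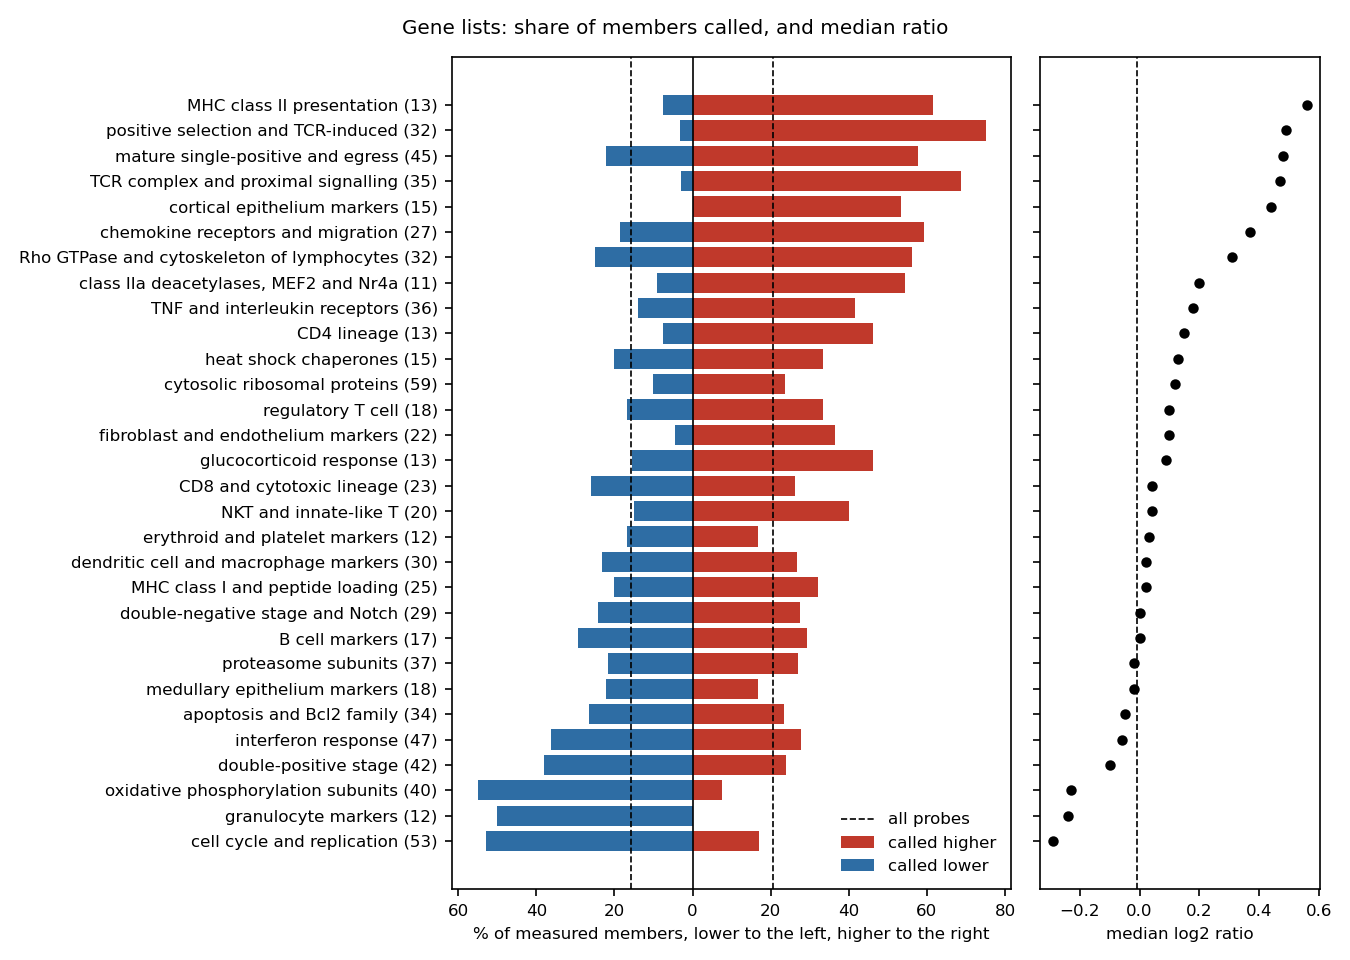
Share of the measured members of each gene list that were called higher (right) or lower (left) in DO11.10 thymocytes, with the list size in parentheses, and the median log2 ratio of each list in the right panel. Dashed lines give the values of all probes, 20.5% higher, 15.8% lower and a median of -0.01, and the TCR-induced and TCR complex lists stand far to the right, as does the class II list, which holds 4 genes whose sign was set, while cell cycle and oxidative phosphorylation stand to the left.

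Calls among death and stress genes went in both directions. Of 34 genes of apoptosis and the Bcl2 family, 8 were higher (23.5%, against 20.5% of all probes) and 9 lower (26.5%, against 15.8%). Their median was -0.05. Cdkn1a, the p53-induced cell cycle inhibitor, was 3.12-fold lower (-1.83, -1.67 and -1.45). Apaf1, the apoptosome scaffold, was 1.54 higher by the first of its probes and 0.83 lower by the other. Of 47 interferon-response genes 13 were higher (27.7%, against 20.5% of all probes) and 17 lower (36.2%, against 15.8%). With the spread from all 24 thymocyte arrays 11 were higher and 10 lower. Ifi204 (2.13) and Ly6e (1.69) stood at the top and the GTPase gene Igtp (-1.20) at the bottom. Glucocorticoid-linked genes were mixed, and the metallothionein gene Mt2 fell by 2.35 while Fkbp5, Ddit4 and the glucocorticoid receptor gene Nr3c1 were 2.15, 1.99 and 1.65 higher. The cytokine receptor genes Ifngr1 (1.20, 2.28 and 2.73) and Il17ra (0.84, 1.94 and 2.33) rose, both less on slides 17 and 18 (1.20 and 0.91, against 2.46 and 2.12 on slides 1 to 4).

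Genes known from γδ T cells were few on the array. Of 4 measured, 3 rose by the first of their probes. Blk, a Src family kinase, had ratios of 2.92, 3.25 and 3.72, the factor gene Etv5 2.08, 3.52 and 3.63, and Sox13 1.97, 2.50 and 2.96. The other Etv5 probe was higher by 0.62. Il17a stood at 0.04 and was not called, and the gamma variable segments Trgv1 (0.68) and Trgv2 (-0.81) went in opposite directions. Blk is also a B cell gene. Of the 20 genes of NKT and innate-like T cells, 8 were higher and 3 lower, while Zbtb16, the factor that defines NKT cells, stood at 0.04 and was not called. Any array left out gave 4 to 6 of these genes higher.

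Markers of cells other than thymocytes also moved, and their part in the results above was not tested. For the cortical epithelium, which presents the selecting ligands, the median of 15 markers was 0.44 (0.24 on slides 1 to 4 and 0.47 on slides 17 and 18). It had 8 of them higher (53.3%, against 20.5% of all probes) and 0 lower. Its protease genes Prss16 (2.11, 2.51 and 3.20) and Ctsl (2.10, 2.48 and 2.74), the chemokine gene Ccl25 (0.80, 1.43 and 2.36) and the proteasome gene Psmb11 (mean 0.93) rose. Foxn1, the defining factor of thymic epithelium, stood at 0.05 and was not called. At 3 h after peptide, on arrays that share the DO11.10 side, Prss16 stood at -1.98 and Ccl25 at -1.55, both called lower. Ctsl stood there at -0.36 and was not called.

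Medullary epithelium showed no such lean, with 3 of 18 markers higher (16.7%) and 4 lower (22.2%). Of all probes 20.5% were higher and 15.8% lower. Without any 1 array 1 to 2 of these markers were higher and 3 to 5 lower. Aire stood at 0.05 and was not called, while Epcam was 2.29-fold lower (-1.35 to -0.90). Fibroblast and endothelial markers had 8 of 22 higher (36.4%) and 1 lower (4.5%), led by Pecam1 (2.39, a gene that leukocytes also express) and the collagen gene Col1a1. Col1a1 stood at 0.91 on slides 1 to 4 and 1.63 on slides 17 and 18 (adjusted p = 0.0343 by limma). Cdh5 (-0.02) and Kdr (0.00), which define endothelium, were not called. Granulocyte markers were lower, 6 of 12 with 0 higher, among them S100a8 (-1.05; -1.26 on slides 1 to 4 and -0.63 on slides 17 and 18, adjusted p = 0.0358), S100a9 (-0.86) and Ngp (-0.79). Dendritic cell and macrophage markers were balanced, 8 of 30 higher (26.7%) and 7 lower (23.3%). Itgax stood at 0.05 (not called) and the lysosomal protease gene Ctsb at -0.53. Apoe stood at 2.15 (2.52 on slides 1 to 4 and 1.39 on slides 17 and 18, adjusted p = 0.0346 by limma). Of 17 B cell markers 5 were higher and 5 lower (29.4% each), or 4 to 5 and 3 to 5 without any 1 array. Cd79a stood at 0.45, Cd79b at -1.08 and Pax5 at -0.06, the last not called.

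The highest ratios of all belonged to genes of widely different function. Ctse, which encodes the aspartic protease cathepsin E, had 4.19, 4.42 and 4.70 and was 21.5-fold higher (adjusted p = 2.84e-07 by limma). Supt16, a subunit of the histone chaperone FACT, was 15.4-fold higher (3.64 to 4.12) and Acly, the enzyme that makes cytosolic acetyl-CoA, 13.1-fold (3.51 to 3.92). None of these 3 was called different between the sets of slides. Others among the 15 highest were. The ribosomal protein gene Rpsa had 4.11, 4.78, 4.89 and 5.19 on slides 1 to 4 against 1.82 and 1.00 on slides 17 and 18 (adjusted p = 0.00576 for the set difference). The elongation factor gene Eef2 averaged 3.94 and 2.15 on these sets, the ferritin light chain gene Ftl1 4.20 and 2.56, the vesicle protein gene Vamp1 3.77 and 2.82, and the semaphorin gene Sema4d 3.59 and 2.91. The groups of arrays did not overlap for Rpsa, Eef2, Ftl1 or Vamp1. These genes are described because they were called different between the sets, so the separation is no further support. Rpsa was also unlike its family. Of 59 cytosolic ribosomal protein genes 14 were higher (23.7%, against 20.5% of all probes) and 6 lower (10.2%, against 15.8%). Without any 1 array 12 to 22 of them were higher. The median was 0.12, and after Rpsa at 3.63 the next highest was Rpl19 at 0.79. Among proteasome subunits Psmd13 (2.72) and Psmd3 (2.68) likewise lay far from the median of their list, -0.02, and both were lower on slides 17 and 18 (1.84 and 1.78) than on slides 1 to 4 (3.16 and 3.13; adjusted p = 0.00965 and 0.0165).

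Over the 171 probes that were lower on slides 17 and 18, the median ratio was 1.60 on slides 1 to 4 and 0.64 on slides 17 and 18. The same probes had medians of -0.25, -0.09 and -0.84 at 3, 6 and 12 h after peptide, against 0.00, 0.01 and 0.01 for all probes. At 12 h 283 of all 16463 probes were called lower, and 11 of these 171. Of these probes Rpsa, Eef2 and Ftl1 stood at -2.22, -2.0 and -2.29 at 12 h, none of them called. Acly, which was not called different between the slide sets, stood at -2.34 at 12 h and was not called either. The peptide arrays share the untreated DO11.10 side, and which side of the ratio varies between arrays was not tested. Of the 133 genes named by rule, 21 differed between the slide sets, 17 lower on slides 17 and 18 and 4 higher.

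**Figure D3:**
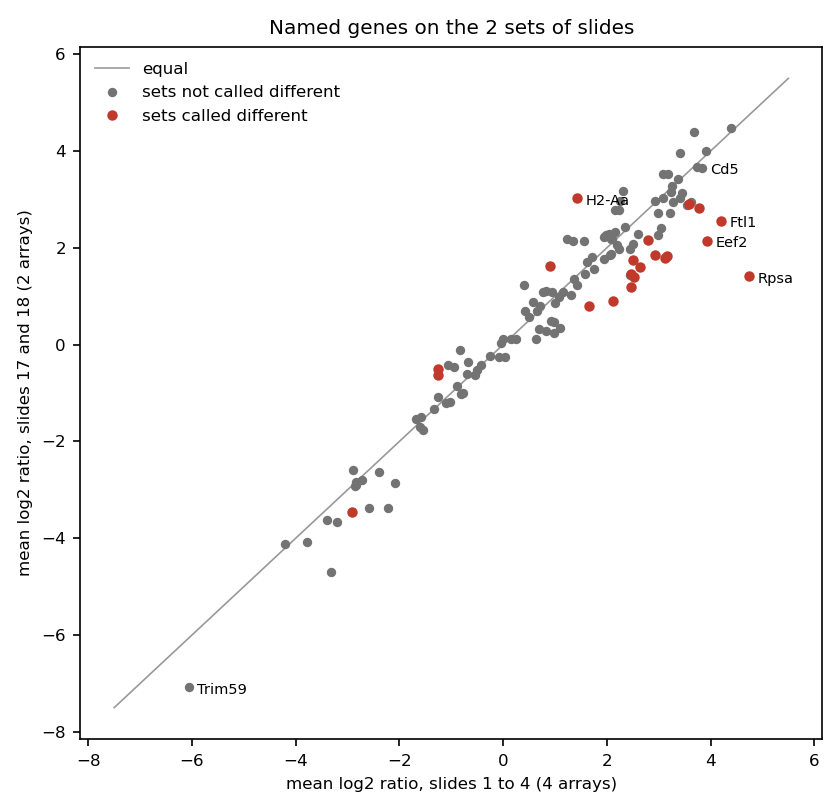
Mean log2 ratio of DO11.10 over mhc -/- thymocytes for the 133 named genes on slides 1 to 4 (horizontal, 4 arrays) and on slides 17 and 18 (vertical, 2 arrays), with a line of equality. The 21 genes in red were called different between the sets, Rpsa the farthest below the line at 4.74 and 1.41, and H2-Aa above it at 1.43 and 3.02.

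The lowest ratio was that of a probe for Trim59, a ubiquitin ligase gene, at -7.64, -6.33 and -5.46, or 84.5-fold lower (adjusted p = 1.36e-06 by limma). The other Trim59 probe on the array was called higher at 1.75, so the pair does not give a direction for the gene. Of 197 genes with more than 1 called probe, 70 had probes called in both directions. The peptide transporter gene Slc15a2 was 18.0-fold lower (-4.69 to -3.81) and Arl2bp, whose product binds the GTPase ARL2, 13.7-fold lower, at -5.10 and -4.30 on slides 17 and 18 and -3.69 to -3.09 on the others. Upf1, the helicase of nonsense-mediated decay, lay between -3.74 and -3.19. The retinol pathway gene Dhrs3, the centromere gene Cenps, the granulocyte enzyme gene Padi4 and Sytl3, a regulator of vesicle exocytosis, ranged from -2.86 to -2.48. Ratios of this size at probes that vary little were also seen for the pseudogene Pisd-ps3 (-3.02 to -2.77).

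The regulators that the series manipulates in the hybridoma were measured in the thymocytes as well. Class IIa histone deacetylases such as HDAC7 are bound to DNA by MEF2 factors and repress their targets, Nr4a1 among them, until TCR signals send them out of the nucleus. Of 11 genes of these families measured, 6 were higher (54.5%, against 20.5% of all probes) and 1 lower (9.1%, against 15.8%). Their median was 0.20. Hdac7 had ratios of -0.11, 0.43 and 0.86 (mean 0.46, SE 0.13, adjusted p = 0.0243 by limma), and its call ended without any of replicates 1 to 5 (adjusted p = 0.0547 to 0.0869). Mef2d stood at 0.20 (-0.06 to 0.44) and was not called with all arrays (adjusted p = 0.0601), though it was on slides 1 to 4 (0.24) and without replicate 6 (0.26). Hdac5, another class IIa deacetylase, was the largest member at 4.75-fold (1.68, 2.39 and 2.63; log2 2.25, SE 0.14, adjusted p = 1.94e-05), with 2.50 on slides 1 to 4 and 1.75 on slides 17 and 18 (adjusted p = 0.042). Mef2b fell by 0.28 and Mef2c stood at 0.03.

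In the hybridoma, HDAC7 joined to the VP16 activation domain was compared with the empty virus, and the mutant that the labels call HDAC7 DP was compared with the empty virus in cells given PMA and ionomycin, drugs that mimic TCR signalling. The ratios were taken as transduced over untreated cells, a direction that the labels do not state and that was read from Nr4a1 on the Nur77 arrays (4.36 over empty virus). HDAC7-VP16 changed 447 probes (2.72%). Of these 277 were also called in thymocytes (62% of the hybridoma list and 4.64% of the thymocyte list, where 36.3% of all probes were called). Of the 234 probes it raised, 112 (47.9%) were higher in DO11.10 thymocytes, against a background of 20.5%, and 32 were lower. HDAC7 DP changed 271 probes (1.65%), and of the 185 it lowered, 114 (61.6%) were higher in DO11.10 thymocytes and 21 lower. PMA and ionomycin themselves changed 2057 probes (12.5%), of which 1264 (61.4%) were called in thymocytes, 891 in the same direction. Of the probes these drugs raised, 48.8% were higher in thymocytes. The share also called in thymocytes was 58.1% for MEF2D joined to VP16 and 59.1% for Nur77, both over empty virus. An overlap of this size was thus not particular to HDAC7. With Nur77 the direction was the same at 315 probes and opposite at 357, and with MEF2D joined to VP16 at 695 and 505. Against untreated cells in place of the empty virus, 38.9% of the probes that HDAC7-VP16 raised were higher in thymocytes, and so were 38.3% of those it lowered. Calls shared with thymocytes then had the same direction at 159 probes and the opposite direction at 138. For HDAC7 DP this control takes in the PMA and ionomycin response too, and 41.2% of the lowered probes were higher in thymocytes. The direction of 2 of the 12 arrays of the empty virus (replicates 3 and 9) is unsettled, as their median correlation with the other empty-virus arrays of the same dye orientation was -0.51 and -0.39. With their sign turned, 39.5% of the probes that HDAC7-VP16 raised over empty virus (88 of 223) were higher in thymocytes. The share for PMA and ionomycin was then 44%.

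A small group stood at the intersection. HDAC7-VP16 raised and HDAC7 DP lowered 39 probes, and 25 of these were higher in DO11.10 thymocytes and 3 lower. Of all probes 20.5% were higher and 15.8% lower there. The 25 became 24 of 38 without the unsettled arrays, 20 of 37 with their sign turned and 22 of 35 without the HDAC7-VP16 array whose source name disagrees with its title. Nr4a1 was among them, at 3.28 with HDAC7-VP16, -2.41 with HDAC7 DP and 1.89 in thymocytes. Cd28 stood at 3.68, -1.64 and 0.97, Cd6 at 2.77, -1.11 and 1.96, and Pdcd1 at 1.95, -2.34 and 1.95. Cytip, an adaptor of leukocyte adhesion, stood at 2.17, -1.69 and 1.54, Gpr65, a proton-sensing receptor, at 1.53, -0.95 and 1.68, and Hdac5 at 1.26, -2.08 and 2.25. Lef1 (0.94, -2.07 and 2.32) lost its HDAC7-VP16 call with the sign of the unsettled arrays turned (adjusted p = 0.0524 by limma). It also lost that call without the HDAC7-VP16 array whose source name disagrees with its title (adjusted p = 0.0625 by limma). Cd5 was raised by HDAC7-VP16 (1.99) but stood at -0.14 with HDAC7 DP, not called, and Egr1 went the other way with HDAC7-VP16 (-1.35). These genes were singled out after their values were seen.

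**Figure D4:**
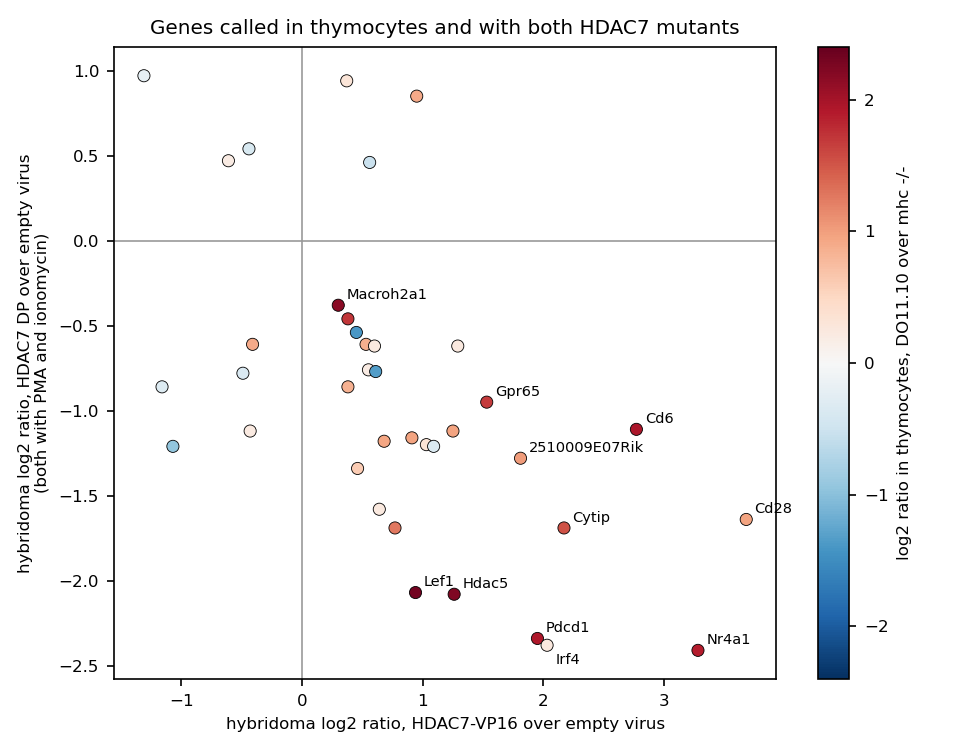
Log2 ratio with HDAC7-VP16 (horizontal) and with HDAC7 DP (vertical) over empty virus in the hybridoma, for the 38 autosomal genes with a symbol that were called in both and in thymocytes, coloured by the thymocyte ratio of DO11.10 over mhc -/-. Most lie at the lower right, raised by HDAC7-VP16 and lowered by HDAC7 DP, and Nr4a1, Cd6, Pdcd1, Hdac5 and Lef1 among them are higher in DO11.10 thymocytes.

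Promoters were searched for short motifs of the factors named above, on either strand, in RefSeq windows of 250 bases before to 50 bases after each start. The MEF2 motif was searched in a pair of 10-base forms, one of which Hdac5 holds in the capitals below. Either form stood in 31 of 10084 array genes with a promoter (0.307%), in 7 of 2276 genes called higher (0.308%) and in 6 of 1738 called lower (0.345%), shares that lay close together, with no test. Hdac5 was one of 2 genes at least 2-fold higher that hold it, with Ckb, a creatine kinase gene. The 1 gene at least 2-fold lower that holds it was Capn3 (-1.40), at -0.31 with MEF2D joined to VP16 and not called there. MEF2D joined to VP16 raised Hdac5 by 3.12 in the hybridoma (adjusted p = 3.01e-06 by limma), while Ckb stood at -0.12 and was not called. The Hdac5 window is shown for that pairing, at chr11:102230173-102230422 on the minus strand of GRCm38.p6, with the motif in capitals 20 bases before the start.
Hdac5: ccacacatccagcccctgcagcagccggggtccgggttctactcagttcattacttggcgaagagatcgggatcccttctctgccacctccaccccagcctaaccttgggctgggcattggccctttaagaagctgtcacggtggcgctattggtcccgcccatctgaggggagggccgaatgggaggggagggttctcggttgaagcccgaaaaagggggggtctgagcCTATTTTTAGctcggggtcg

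The EGR motif, GCGTGGGCG or GCGGGGGCG, was in 8.0% of genes called higher, 6.9% of those called lower and 6.56% of all array genes with a promoter. At changes of at least 2-fold it was in 8.61% of 674 higher genes and 10.2% of 128 lower genes, with no test. Among genes described above it stood in Nr4a1, Klf2 and Cxcr4, which are shown as members raised by 1.89, 1.74 and 2.58 with the motif or its reverse complement in capitals. Nr4a1 is at chr15:101266596-101266845 (plus strand), Klf2 at chr8:72318812-72319061 (plus strand) and Cxcr4 at chr1:128592300-128592549 (minus strand).
Nr4a1: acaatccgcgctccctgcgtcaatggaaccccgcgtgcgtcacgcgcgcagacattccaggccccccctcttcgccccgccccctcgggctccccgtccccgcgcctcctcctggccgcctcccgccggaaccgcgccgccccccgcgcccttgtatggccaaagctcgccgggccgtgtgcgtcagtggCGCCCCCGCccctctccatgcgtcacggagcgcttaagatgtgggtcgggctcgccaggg
Klf2: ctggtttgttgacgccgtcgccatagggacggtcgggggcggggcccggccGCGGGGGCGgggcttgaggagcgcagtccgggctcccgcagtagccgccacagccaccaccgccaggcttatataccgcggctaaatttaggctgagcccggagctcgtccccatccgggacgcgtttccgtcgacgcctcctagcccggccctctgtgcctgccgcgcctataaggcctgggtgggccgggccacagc
Cxcr4: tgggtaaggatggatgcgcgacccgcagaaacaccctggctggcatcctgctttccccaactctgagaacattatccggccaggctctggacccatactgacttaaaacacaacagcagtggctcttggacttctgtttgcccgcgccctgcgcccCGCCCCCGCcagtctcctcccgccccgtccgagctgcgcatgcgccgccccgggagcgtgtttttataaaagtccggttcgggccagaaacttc
The motif begins 60, 199 and 94 bases before the start of these genes. The motif of NR4A receptors, AAAGGTCA, was in 1.32% of genes called higher, 1.21% of those called lower and 1.52% of all. The ATTGG letters stood in 42.4%, 43.9% and 42.2% of these groups.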

How the data were processed

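Per the labels' protocols, acid phenol and guanidinium isothiocyanate were used to extract total RNA, and first-strand cDNA carrying aminoallyl-dUTP was coupled to Cy3 or Cy5. The authors deposited normalized log2 ratios of both channels, with no missing values. Base 2 is assumed for the logarithm, because neither labels nor file headers used here name the scanner, background correction, normalization or direction. Signal over background is unknown, as spot intensities were not used here. Dyes were taken from the titles, because both channels carry the label Cy3 in their own field. Whether the arrays hold RNA of separate animals is not in the labels, so the p-values cover spread among arrays that may be technical, and the number of arrays limits the precision.

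Each array was centred on its median and fitted with limma 3.58.1 (lmFit, eBayes) in R 4.3.3, as a ratio against 0 with a dye term. The dye term itself called 0 probes by limma (1056 at an unadjusted p under 0.05). Slide set was tested in the same way. The fit was tested on simulated data. Hybridoma comparisons were fitted against their empty-virus groups.

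Of 16463 probes 14551 had 1 gene symbol in the platform annotation, 6 several and 1906 none, and 14277 were found in the RefSeq table (GRCm38.p6). For genes with several probes the first in the file was used, and genes on X or Y are left out of lists and names. Named were the direction genes, fixed stage genes (2 of them are not reported here), the 15 highest and 15 lowest called probes with the same sign on 6 arrays, and up to 3 called members of each list by size. Other genes in the text are list members or were singled out after their values were seen. Members, lists and rules were chosen with earlier results of these data known.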

Additional observations from a re-analysis of the deposited data

Results flagged for a closer look

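Of the 133 named genes, 6 had an array whose gap to the nearest other array, as a share of the range of 6, exceeded Dixon's 95% critical value. Chance flags about 1 in 20 groups, so 6 of 133 is near that rate. H2-Ea stood at 4.92 on replicate 6 against 3.34 to 3.92 on the others. Klf2 stood at 1.52 on replicate 2 against 1.76 to 1.84. Ddit4 stood at 2.78 on replicate 2 against 1.59 to 1.97. Padi4 stood at -1.88 on replicate 3 against -2.76 to -2.44. Etv5 stood at 2.08 on replicate 3 against 3.09 to 3.63. Cfl1 stood at 1.86 on replicate 6 against 2.68 to 3.06.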

How the results depend on the processing

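The count of 5975 called probes ranged from 5117 to 5706 when 1 array was left out (2947 to 3304 higher, 2138 to 2403 lower, 967 to 1069 at least 2-fold higher and 201 to 213 at least 2-fold lower). It was 4908 when probes with low mean absolute ratios were left out (8230 tested), 5251 with the spread from all 24 thymocyte arrays, 5777 on slides 1 to 4, 5826 with slide set as a random block and at most 6019 with other scalings. Every probe called both by the reported fit and by one of these alternatives kept its sign. Among the 127 named genes with a call, 123 were called with the same sign by each alternative fit, and Hdac7, Rag1, Ccr9 and Hspa1b did not. The values of 45 of 133 named genes on slides 17 and 18 alone differed from the mean by more than the SD between arrays. The slide set difference was 274 probes without a dye term. With untreated cells in place of the empty virus, probes called in thymocytes and also in the hybridoma numbered 1801 for MEF2D-VP16 (1200 against the empty virus). For Nur77 they numbered 1220 (672), and the cause was not tested. For HDAC7 DP they numbered 1876 (180). Its empty-virus cells had PMA and ionomycin and the untreated cells did not, so the 1876 take in the drug response. Alternatives on the unsettled empty-virus arrays were chosen after seeing the data. No paired analysis was possible because each array holds both RNAs and the replicate numbers were given in accession order. Without spot intensities, weak spots could not be separated from strong ones.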
